A study of Homo sapiens with 6 samples.

Results

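The genes described here were 41 protein-coding genes of inflammation, made up of cytokines, chemokines, the subunits of the transcription factor NF-kB and genes that NF-kB is known to switch on, out of 58735 genes in the count table. They were taken by gene name, with no threshold on a measured value. This list and the further lists used below were chosen with earlier results of these data known. By role the list held 11 CXC chemokines, 7 CC or CX3C chemokines, 4 cytokines of the IL-1 family, 6 other cytokines, 3 colony-stimulating factors, 5 NF-kB subunits, 3 feedback inhibitors or targets of NF-kB and 2 adhesion molecules. Their mRNA was measured by poly(A) RNA-seq in cells labelled MG63, the name of an established human osteosarcoma cell line, in 3 samples transfected with a negative control siRNA (siMock) and 3 transfected with an siRNA against FUBP1 (siFUBP1). RNA was taken 48 h after transfection, and all 6 samples were of the same line with no other agent named. Which of the designed FUBP1 siRNAs was sequenced is not given in the sources used here. FUBP1 is a protein that binds single-stranded DNA and RNA and is best known as a regulator of MYC transcription. The comparison asked which transcripts change when FUBP1 is depleted. The labels do not say whether the replicates came from separate cultures, so the p-values measure only the spread between these samples, which may be technical.

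Chemokines are small secreted proteins that attract leukocytes. CXC chemokines that carry the residues Glu-Leu-Arg ahead of their first cysteines, among them CXCL1, CXCL2, CXCL3 and CXCL8, mainly attract neutrophils. NF-kB is a family of dimers, built from RELA, RELB, REL and the processed products of NFKB1 and NFKB2, that are held in the cytoplasm by inhibitors such as the product of NFKBIA. Signals from cytokine and Toll-like receptors pass through adaptors such as MYD88 and RIPK1 to the IkB kinase, which marks the inhibitor for destruction, after which NF-kB enters the nucleus and switches on chemokine, cytokine and adhesion genes together with its own inhibitors, NFKBIA and TNFAIP3. In bone, the same cytokines and CSF1 are known for their part in the formation and activity of osteoclasts.

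FUBP1, the targeted gene, was lower in every siFUBP1 library. The FUBP1 gene (chr1:77944055-77979110, GRCh38) stood at 237, 255 and 274 CPM (normalized read counts, on library sizes scaled by TMM) in siMock and at 44.3, 43.4 and 53.0 CPM in siFUBP1, a fall of 2.44 on the log2 scale (SE 0.0895, edgeR adjusted p = 1.90e-17) that left 18.4% of the siMock level. The libraries held 16309900 to 17484313 counted fragments each. Markers of the osteoblast or mesenchymal lineage were only partly present: COL1A2, a chain of type I collagen, had 0 reads in every sample, SPARC had at most 5 reads and ALPL at most 1, while VIM averaged 28.6 FPKM in siMock and 37.4 FPKM in siFUBP1 and COL1A1, the other chain of type I collagen, fell from 11.4 to 4.61 FPKM. RUNX2, the master transcription factor of osteoblasts, had 8, 8 and 6 reads in siMock and 73, 97 and 39 in siFUBP1 (log2 3.15, edgeR adjusted p = 4.53e-08). It had enough reads for the test only in siFUBP1, so a difference was favoured in advance and nothing is read from it. The bone matrix genes SPP1 and BGLAP, too low to test, had 4 and 9 reads in all over siMock and 49 and 31 over siFUBP1. The 8 markers summed to 39.2 to 42.1 FPKM in siMock and 41.3 to 47.1 FPKM in siFUBP1. FPKM is a level scaled to gene length and library size. The keratin genes of epithelial cells were high and fell with the group. KRT8 went from 286 to 143 FPKM and KRT18 from 217 to 138 FPKM. The epithelial markers EPCAM and CDH1 were low and did not pass the test (edgeR adjusted p = 0.413 and 0.749). EPCAM stood at 1.59 FPKM in siMock and 1.82 FPKM in siFUBP1. CDH1 had 22, 14 and 10 reads in siMock and 20, 8 and 15 in siFUBP1. The 4 epithelial markers summed to 475 to 541 FPKM in siMock and 271 to 291 FPKM in siFUBP1. These sums were nearly all KRT8 and KRT18. The 6 leukocyte markers together reached 0.263 to 0.684 FPKM in siMock and 0.114 to 0.541 FPKM in siFUBP1, with CD3E at 0 in all samples, and the 4 endothelial markers summed to 0.499 to 0.767 and 0.299 to 0.448 FPKM. The lack of COL1A2, SPARC and ALPL reads and the high keratin levels go against the MG63 label in part, so the line is named here only as the labels give it. Whether the marker levels have a part in the results for the inflammatory genes was not tested. In such bulk samples, fewer cells of a type and less RNA per cell cannot be told apart.

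The sequences just upstream of these genes are shown for the chemokines that moved most, for their close copy CXCL1 and for the inhibitor NFKBIA, because 1 binding motif of NF-kB recurs in them at about the same place. Each is the RefSeq promoter window of 300 bases, from 250 before to 50 after the annotated start of transcription, on GRCh38.p14 and in the direction of the gene. Capitals mark the 9 letters GGAATTTCC, called the kB core here, on either strand. In NFKBIA the match is on the opposite strand and therefore reads as its reverse complement. The windows are CXCL1 at chr4:73869143-73869442 on the plus strand, CXCL2 at chr4:74099146-74099445 on the minus strand, CXCL3 at chr4:74038640-74038939 on the minus strand, CXCL8 at chr4:73740319-73740618 on the plus strand and NFKBIA at chr14:35404700-35404999 on the minus strand.
CXCL1: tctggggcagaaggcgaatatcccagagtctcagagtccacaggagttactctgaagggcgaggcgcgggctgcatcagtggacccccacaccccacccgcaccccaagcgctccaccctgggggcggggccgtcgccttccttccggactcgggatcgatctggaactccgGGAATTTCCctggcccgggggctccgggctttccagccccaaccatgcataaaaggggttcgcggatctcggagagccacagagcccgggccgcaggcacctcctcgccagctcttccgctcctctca
CXCL2: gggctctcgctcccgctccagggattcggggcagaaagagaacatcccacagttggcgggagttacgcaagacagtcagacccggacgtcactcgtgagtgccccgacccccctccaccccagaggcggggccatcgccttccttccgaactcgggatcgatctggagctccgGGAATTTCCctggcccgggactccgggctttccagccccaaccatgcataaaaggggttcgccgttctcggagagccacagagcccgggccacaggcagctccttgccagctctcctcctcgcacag
CXCL3: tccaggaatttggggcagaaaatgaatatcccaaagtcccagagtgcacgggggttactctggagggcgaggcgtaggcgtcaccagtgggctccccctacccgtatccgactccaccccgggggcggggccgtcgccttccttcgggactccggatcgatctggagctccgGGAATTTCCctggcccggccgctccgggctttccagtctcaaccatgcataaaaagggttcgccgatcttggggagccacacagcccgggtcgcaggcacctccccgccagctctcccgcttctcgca
CXCL8: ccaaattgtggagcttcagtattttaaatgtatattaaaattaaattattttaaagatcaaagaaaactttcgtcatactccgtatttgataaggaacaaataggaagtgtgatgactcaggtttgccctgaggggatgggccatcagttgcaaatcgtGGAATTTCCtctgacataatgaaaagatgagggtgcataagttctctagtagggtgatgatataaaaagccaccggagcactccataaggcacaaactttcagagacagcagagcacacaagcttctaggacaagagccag
NFKBIA: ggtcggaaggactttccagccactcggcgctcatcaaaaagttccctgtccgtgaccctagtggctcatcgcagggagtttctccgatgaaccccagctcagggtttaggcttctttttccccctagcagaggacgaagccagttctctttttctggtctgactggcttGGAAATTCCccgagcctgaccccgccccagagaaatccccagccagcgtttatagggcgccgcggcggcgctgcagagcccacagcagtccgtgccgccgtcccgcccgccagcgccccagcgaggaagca

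The RefSeq promoter set held 31 of the 41 genes, and CXCL16, CCL2, CCL5, CX3CL1, IL18, LIF, IL15, CSF1, CSF3 and RELB had no entry in it. The kB core occurred in 12 of the 31 windows (38.7%), against 129 of all 27305 windows (0.472%). The list was made up in part of known NF-kB targets, so a high share goes with its choice, and nothing is read from it. A looser kB pattern, GGG then any 5 bases then CC, was searched on both strands too and overlaps the core wherever a further G or C flanks it. It was found in 24 of 31 (77.4%) against 58% of all windows. The AP-1 motif TGANTCA was found in 6 of 31 (19.4%) against 7.76%. The core lay 78, 77 and 78 bases before the start in CXCL1, CXCL2 and CXCL3, 91 before it in CXCL8 and 81 before it in NFKBIA. The windows of CXCL1 and CXCL2 were 90.2% identical over 265 aligned bases, those of CXCL1 and CXCL3 86.6%, and those of CXCL2 and CXCL3 84.3%, so these matches are not independent of each other. The other windows with a core were those of CXCL5, CXCL6, CXCL10, CXCL11, NFKB1, REL and ICAM1. Those of CXCL5 and CXCL6 hold the same letters for a stretch on both sides of the core, so they are not independent either. Of the 12 genes with a core, CXCL2, CXCL3, CXCL8 and NFKB1 rose, NFKBIA and REL fell, ICAM1 did not pass the test, and CXCL1, CXCL5, CXCL6, CXCL10 and CXCL11 had too few reads to test. A match of letters is a description of the window, not a measured site.

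**Figure D1:**
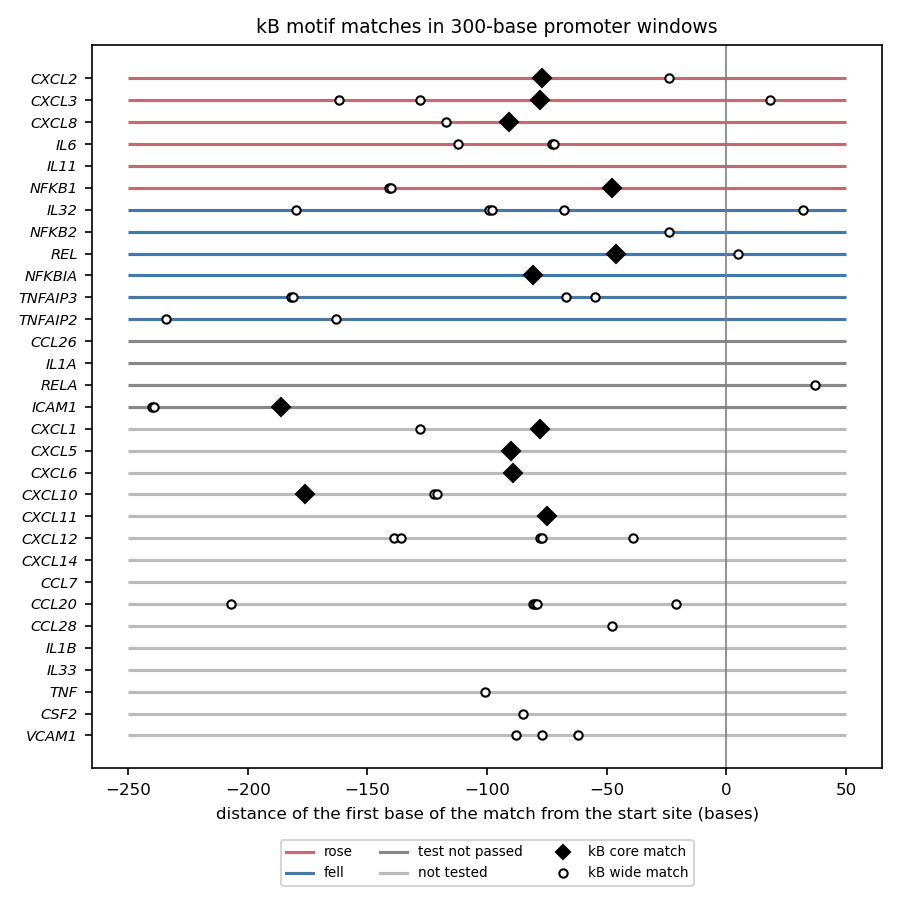
Positions of kB core matches (filled diamonds) and looser kB matches (open circles) in the promoter windows of the 31 genes, in bases from the RefSeq start of transcription (x axis), a gene per row, with the line's colour for genes that rose, fell, did not pass or were not tested. The kB core falls at 77 or 78 bases before the start in CXCL1, CXCL2 and CXCL3 and at 91 in CXCL8, and the same core is present in NFKBIA, which fell.

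A gene was tested where its reads passed edgeR's filter on low counts, which 23 of the 41 genes and 16116 of all genes did. In what follows rose and fell are used only for an adjusted p below 0.05 over all 16116 genes, and called means that the change was also over 2-fold. Of the 23 tested genes, 7 rose, 10 fell and 6 did not pass, 73.9% in all against a background of 60.2% of all tested genes (30.1% higher and 30.1% lower). Called genes were 5 higher and 3 lower, 34.8% of those tested against 17.3% of all tested genes (8.16% higher and 9.13% lower). CXCL3 and CXCL8 entered the test only through siFUBP1 and CCL5 only through siMock. For each, that was the only group in which every sample reached the filter's level of 0.599 CPM. These shares therefore include genes for which a difference was favoured in advance. The list was also chosen with earlier results of these data known, so nothing is read from the shares. The median log2 fold change was -0.07 over the 23 genes and 0.00 over all tested genes. For 17 of the 23 the siMock and siFUBP1 values were fully apart, against 63.9% of all tested genes. The genes thus divided by direction: the chemokines CXCL2, CXCL3 and CXCL8, the cytokines IL6 and IL11, CSF1 and NFKB1 were higher after FUBP1 knockdown, and CXCL16, CCL5, IL18, IL32, NFKB2, REL, RELB, NFKBIA, TNFAIP3 and TNFAIP2 were lower.

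**Figure D2:**
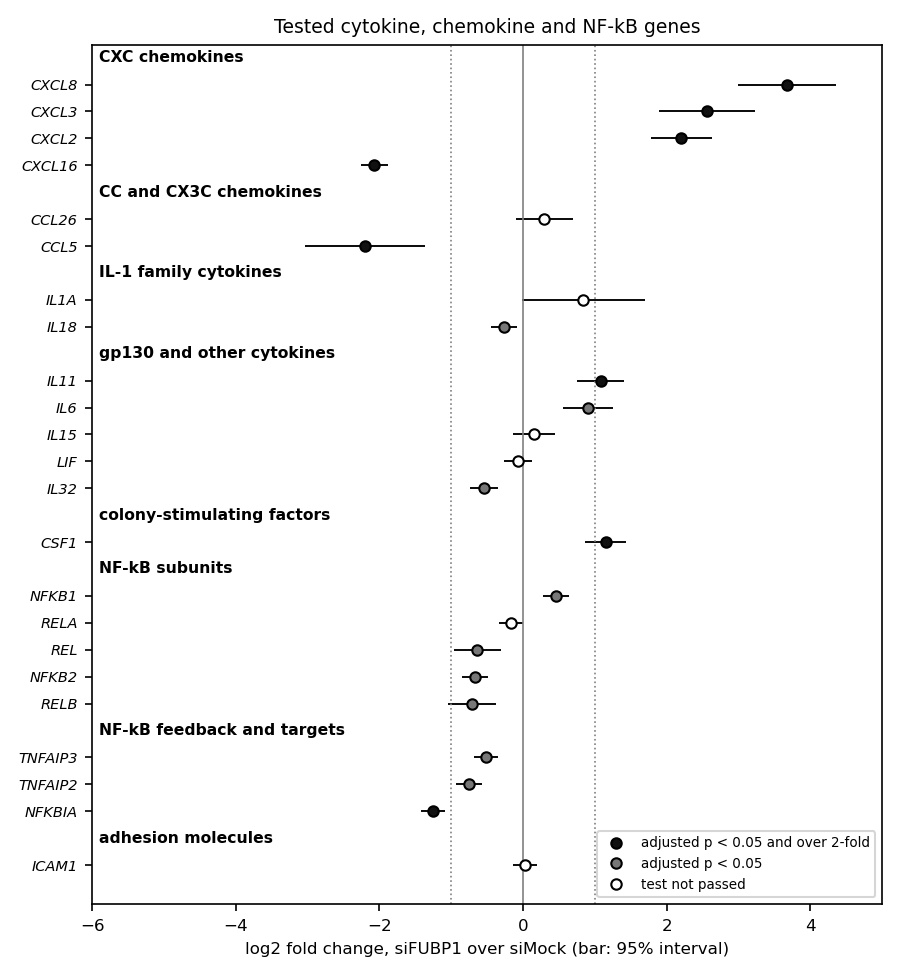
Log2 fold change of siFUBP1 over siMock for the 23 tested genes with 95% confidence intervals from edgeR (x axis), ordered by role. CXCL8 lies farthest to the right at 3.68 and CCL5 farthest to the left at -2.20, while 4 of the 5 NF-kB subunits and all 3 feedback genes and targets lie below 0.

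Among the CXC chemokines, all 4 that could be tested were called, 3 of them higher, where 17.3% of all tested genes were called and 8.16% called higher. CXCL3 and CXCL8 were tested only because of their siFUBP1 level, which favoured a difference, and nothing is read from this count. CXCL8 (ENSG00000169429, chr4:73740506-73743716), the classic neutrophil attractant also known as interleukin 8, had 10, 6 and 11 reads in siMock and 104, 182 and 85 reads in siFUBP1. That was 0.557 ± 0.182 CPM against 7.17 ± 2.95 CPM (SD, n = 3). Every siFUBP1 sample was above every siMock sample, with replicate 2 the highest. The log2 fold change was 3.68 (SE 0.33, edgeR adjusted p = 1.80e-09), a 12.8-fold rise, and with any 1 library left out it ranged from 3.31 to 3.90.

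CXCL2 (chr4:74097035-74099293), a neutrophil attractant of the same receptor, had 30, 31 and 24 reads in siMock and 118, 165 and 133 in siFUBP1, or 1.73 ± 0.17 against 8.04 ± 1.31 CPM. The siMock samples were alike and all lay below the siFUBP1 samples. The rise was 4.62-fold, 2.21 on the log2 scale (SE 0.21, edgeR adjusted p = 9.13e-10). CXCL3 (chr4:74036589-74038807), its neighbour in the chemokine cluster of chromosome 4, had 13, 6 and 10 reads against 50, 70 and 64, and rose 5.93-fold (log2 2.57, SE 0.32, adjusted p = 1.67e-07). CXCL2 and CXCL3 share stretches of sequence with each other and with CXCL1. Of the 1546 words of 50 bases in CXCL2 transcripts, 139 (8.99%) also occur in CXCL3 and 60 (3.88%) in CXCL1. The division of reads among these genes is uncertain to that extent. CXCL1, the third of the closely related genes, had 5 reads in siFUBP1 replicate 2 and 0 in the other 5 samples, and CXCL5 and CXCL6, which share their cluster, had 0 in all samples.

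CXCL16 (chr17:4733526-4739922), a chemokine made as a membrane protein that attracts T cells through CXCR6, moved in the opposite direction and was the most abundant chemokine in siMock, at 24.5 FPKM against 9.21 FPKM for CCL26, but not in siFUBP1, at 5.87 against 11.4 FPKM. It had 1217, 1152 and 1023 reads in siMock and 275, 281 and 297 reads in siFUBP1. The siFUBP1 samples were close to each other and far below siMock. The level fell 4.20-fold, from 69.3 ± 4.71 to 16.5 ± 0.446 CPM (SD, n = 3), by 2.07 on the log2 scale (SE 0.0936, edgeR adjusted p = 8.46e-16). A stretch of 85 exonic bases of CXCL16 (3.04%) lies opposite MED11 on the other strand, and whether counting used strand is not given in the sources used here. Of the other CXC chemokines, CXCL10 and CXCL11, attractants of T cells, had at most 1 and 2 reads in any sample, CXCL14 had at most 3, and CXCL12, the ligand of CXCR4, had 0 in all.

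**Figure D3:**
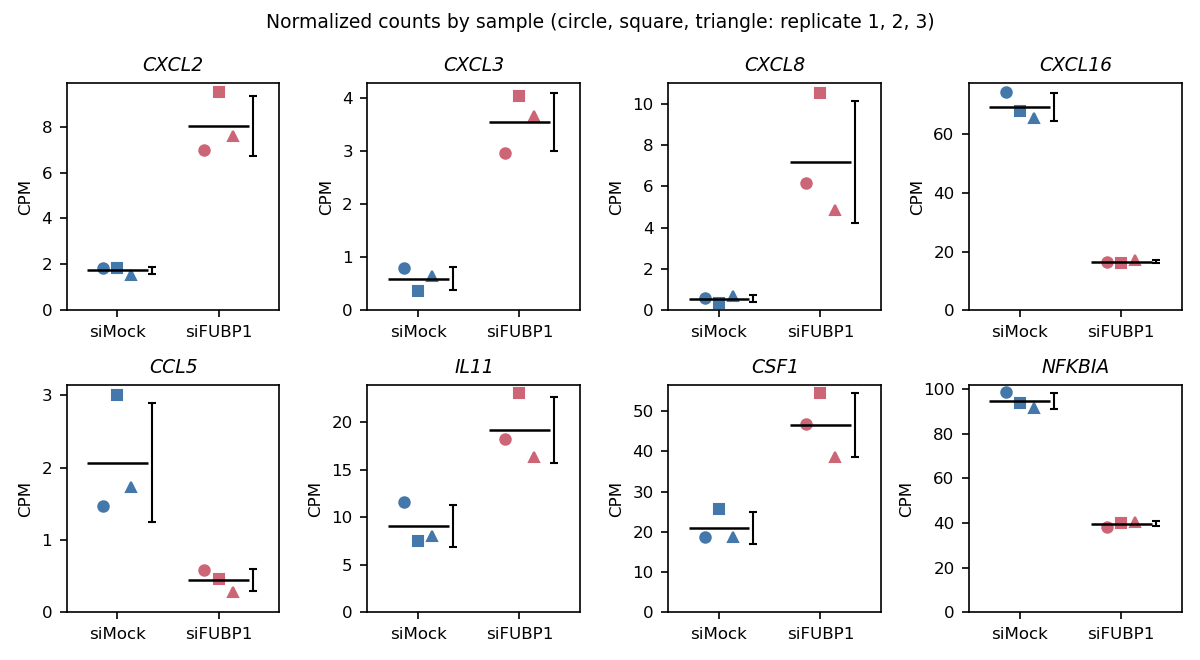
CPM (y axis, from 0) in each siMock and siFUBP1 sample for the 8 called genes, a panel per gene, with circle, square and triangle for replicates 1, 2 and 3, a line at the group mean and a bar of 1 SD. The siMock and siFUBP1 points are apart for each of the 8 genes, as for 63.9% of all tested genes. For CXCL8 the siFUBP1 samples run from 4.87 to 10.5 CPM. CXCL3, CXCL8 and CCL5 were tested only through the group where they are higher, which favoured a difference.

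Of the CC and CX3C chemokines, 2 of 7 could be tested. CCL5 (chr17:35871491-35880793), also known as RANTES and an attractant of T cells and monocytes, had 24, 51 and 27 reads in siMock and 10, 8 and 5 in siFUBP1. The siMock replicate 2 library was the highest. CCL5 was tested only because of its siMock level, which favoured a difference, and nothing is read from the gap between the groups. The level fell 4.60-fold, by 2.20 on the log2 scale (SE 0.41, edgeR adjusted p = 4.45e-05), from 2.07 ± 0.819 to 0.447 ± 0.153 CPM (SD, n = 3). CCL26, an eosinophil attractant, had 88, 136 and 99 reads in siMock against 180, 133 and 105, so that only siFUBP1 replicate 1 lay above the siMock range. Its log2 fold change of 0.30 had an interval of -0.10 to 0.69 (adjusted p = 0.187), and without siFUBP1 replicate 3 it was 0.48 (adjusted p = 0.0358). CCL2, the main monocyte attractant, was barely present, with 7, 9 and 1 reads in siMock and 6, 8 and 11 in siFUBP1. CCL20, the ligand of CCR6, had 18, 2 and 14 reads against 8, 5 and 7. CCL28 and CX3CL1 had at most 7 and 3 reads in any sample, and CCL7 had 0 in all.

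The IL-1 family was represented mainly by IL18, a cytokine known for inducing interferon-gamma in lymphocytes. It stood at 76.4, 82.9 and 77.0 CPM in siMock and at 66.6, 73.2 and 57.6 CPM in siFUBP1, with no overlap. It fell by 0.26 on the log2 scale (edgeR adjusted p = 0.0130). The test was no longer passed with no composition scaling (-0.16, adjusted p = 0.127), without siMock replicate 2 (-0.22, adjusted p = 0.0793) and without siFUBP1 replicate 3 (-0.17, adjusted p = 0.110). IL1A, an alarmin that signals through IL1R1, had 11, 11 and 21 reads in siMock and 27, 42 and 13 in siFUBP1, so the groups overlapped. Its log2 fold change of 0.84 (interval -0.01 to 1.69, adjusted p = 0.0829) passed the test without siMock replicate 3 (1.25, adjusted p = 0.0283) or without siFUBP1 replicate 3 (1.18, adjusted p = 0.0155). IL1B, its secreted relative, had 10, 10 and 15 reads against 7, 8 and 8, and IL33, a nuclear alarmin, had 0 reads in siMock against 1, 5 and 7 in siFUBP1, both below the filter.

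Among the other cytokines, the gp130 ligands IL6 and IL11 rose while LIF, which uses the same signalling chain, did not pass. IL6 (chr7:22725884-22732002), the acute-phase cytokine, had 9.56, 5.71 and 8.26 CPM in siMock and 13.2, 17.9 and 12.9 CPM in siFUBP1. The lowest siFUBP1 sample lay above the highest siMock sample. It rose 1.87-fold, from 7.84 ± 1.96 to 14.7 ± 2.79 CPM (log2 0.90, SE 0.17, edgeR adjusted p = 6.88e-05). In IL6, 428 exonic bases (20.7%) lie opposite the antisense gene AC073072.1, and without strand information reads of the pair cannot be told apart.

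IL11 (chr19:55364389-55370463), a relative of IL6 known from bone and stromal cells, had 11.6, 7.53 and 8.07 CPM in siMock and 18.2, 23.1 and 16.3 CPM in siFUBP1. Again the groups were apart and siFUBP1 replicate 2 was the highest. The rise was 2.11-fold (log2 1.08, SE 0.16, edgeR adjusted p = 3.13e-06), just over the 2-fold line. It passed the test with any 1 library left out, but was under 2-fold without siMock replicate 2 (0.96), without siMock replicate 3 (0.9996) and without siFUBP1 replicate 2 (0.93). LIF, which maintains stem cells and acts on bone, stood at 63.1, 62.7 and 56.2 CPM against 53.9, 67.7 and 51.9, a log2 difference of -0.07 (interval -0.26 to 0.13, adjusted p = 0.562) whose sign turned under 3 alternative settings.

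IL32, a cytokine of human cells that induces other inflammatory cytokines, fell from 99.8, 81.0 and 72.8 CPM to 58.0, 56.4 and 59.5 CPM. The siMock samples were spread and the siFUBP1 samples close together, without overlap (log2 -0.54, edgeR adjusted p = 2.24e-05). IL15, a growth factor of NK and T cells, had 8.30 to 11.5 CPM in siMock and 10.8 to 12.0 CPM in siFUBP1 (log2 0.15, interval -0.14 to 0.44, adjusted p = 0.382). TNF, the best-known inducer of NF-kB, had 1 read in 1 siMock sample and none elsewhere, and a count of 0 allows a level of up to 0.172 to 0.184 CPM on the library totals, counting error only.

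Of the colony-stimulating factors, CSF1 (chr1:109910242-109930992), the growth factor of macrophages and osteoclast precursors, had 18.6, 25.7 and 18.6 CPM in siMock and 46.7, 54.5 and 38.7 CPM in siFUBP1. All siFUBP1 samples exceeded all siMock samples. It rose 2.22-fold, from 21.0 ± 4.06 to 46.6 ± 7.91 CPM (log2 1.15, SE 0.13, edgeR adjusted p = 9.73e-07). CSF2 and CSF3, the factors of granulocyte and macrophage precursors, had at most 5 and 2 reads in any sample.

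All 5 NF-kB subunits were expressed, and none changed over 2-fold. NFKB1, whose product is processed to p50, was the 1 subunit that rose, from 34.9, 33.9 and 34.1 CPM to 45.1, 51.1 and 45.7 CPM (log2 0.46, edgeR adjusted p = 6.79e-05). The siMock samples were nearly equal and every siFUBP1 sample lay above them. NFKB2, the p52 precursor of the non-canonical pathway, fell from 206, 208 and 186 CPM to 122, 143 and 112 CPM (log2 -0.67, adjusted p = 2.36e-07). Its partner RELB fell from 15.1, 14.1 and 10.3 CPM to 6.57, 9.86 and 7.68 CPM (log2 -0.72, adjusted p = 4.81e-04). Here the highest siFUBP1 sample came close to the lowest siMock sample. After a correction for GC content and length, the log2 fold changes were -0.39 for NFKB2, -0.42 for RELB, 0.51 for NFKB1 and -0.65 for REL. Each still passed the test.

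REL, the c-Rel subunit best known in lymphocytes, had 9.19, 14.9 and 13.4 CPM in siMock and 8.23, 8.01 and 7.96 CPM in siFUBP1, where the read count was 139 in each of the 3 samples. It fell by 0.64 on the log2 scale (edgeR adjusted p = 0.00107). Of its 13170 exonic bases, 5702 (43.3%) are shared on the same strand with AC010733.2, which makes its count uncertain. RELA, the p65 subunit that carries most canonical activity, stood at 165, 158 and 141 CPM against 141, 143 and 129, and a pair of siFUBP1 samples lay just above siMock replicate 3. Its log2 difference was -0.17 (interval -0.33 to -0.01, adjusted p = 0.0674), which passed the test without siMock replicate 3 (-0.24, adjusted p = 0.0151) and was 0.02 (adjusted p = 0.797) after a correction for GC content and length.

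The 3 genes listed as NF-kB feedback genes or targets, NFKBIA, TNFAIP3 and TNFAIP2, each fell, as did 30.1% of all tested genes. NFKBIA (chr14:35401511-35404749), which encodes the inhibitor IkB-alpha and is itself switched on by NF-kB, stood at 98.7, 93.7 and 91.3 CPM in siMock and at 38.4, 40.0 and 40.6 CPM in siFUBP1. Both groups were tight and far apart. It fell 2.38-fold, by 1.25 on the log2 scale (SE 0.0814, edgeR adjusted p = 8.95e-13). TNFAIP3, which encodes the ubiquitin-editing enzyme A20 that ends NF-kB signalling, fell from 130, 115 and 112 CPM to 81.5, 78.9 and 88.4 CPM (log2 -0.52, adjusted p = 4.27e-06). TNFAIP2, found as a gene that TNF induces, fell from 581, 609 and 508 CPM to 347, 360 and 303 CPM (log2 -0.75, adjusted p = 3.37e-08). The groups were apart for both genes, as for 63.9% of all tested genes. After a correction for GC content and length, the log2 fold changes were -1.32 for NFKBIA, -0.51 for TNFAIP3 and -0.46 for TNFAIP2.

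Of the adhesion molecules that leukocytes bind, ICAM1 was level, at 50.2, 51.7 and 47.2 CPM in siMock and 52.0, 49.8 and 50.1 CPM in siFUBP1. The log2 difference was 0.03 with an interval of -0.15 to 0.20 (edgeR adjusted p = 0.802). In ICAM1, 815 exonic bases (22%) lie opposite AC011511.5. VCAM1 had 0 reads in every sample. In all, 18 of the 41 genes were too low to test: 5 had 0 reads in all samples (CXCL5, CXCL6, CXCL12, CCL7 and VCAM1), 10 never reached 10 reads in a sample, and CCL2, CCL20 and IL1B had 11 to 18 reads in their highest sample.

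Compared per length, the genes with the highest level in siMock were TNFAIP2 at 111 ± 10.5 FPKM, NFKB2 at 44.1 ± 2.86, NFKBIA at 39.4 ± 1.59, IL18 at 29.6 ± 1.40 and RELA at 28.0 ± 2.29 FPKM (SD, n = 3). TNFAIP2 was above the rest by far more than the spread, while IL18 and RELA differed by less than the SD of RELA. In siFUBP1 the means of these 5 genes were 66.5, 27.9, 16.6, 24.9 and 25.0 FPKM, so that NFKBIA passed below IL18 and RELA. The 7 genes that rose stood at 5.42 FPKM (NFKB1) or less in siMock, a level set by those genes themselves. The share of all tested genes that rose above or below that level was not taken, and nothing is read from it.

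**Figure D4:**
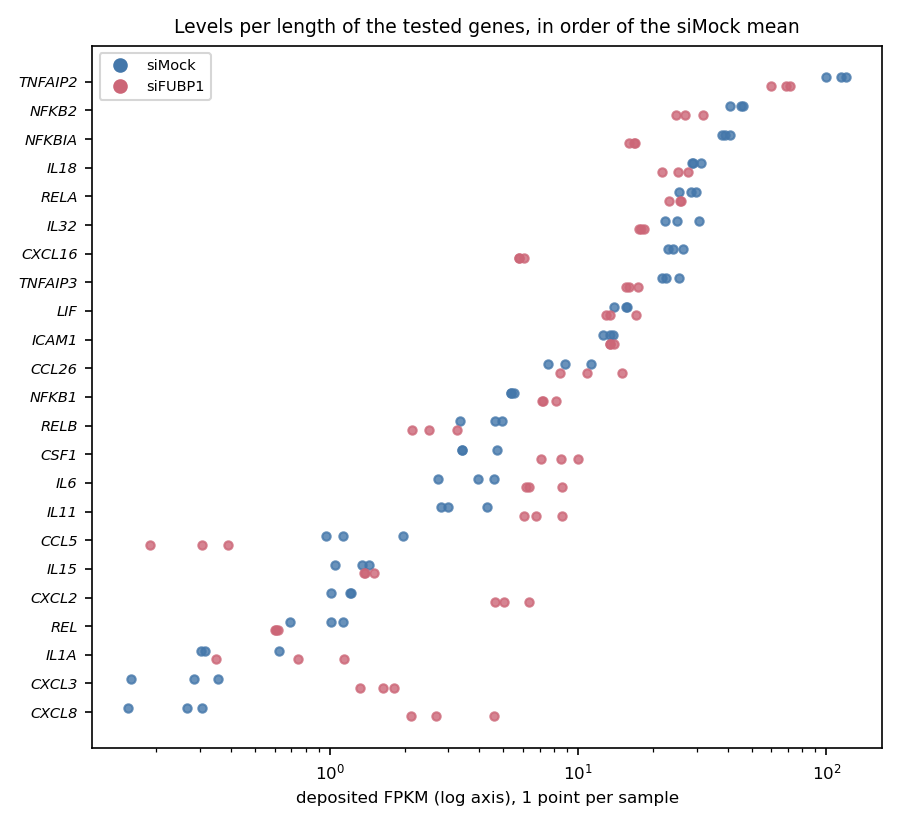
FPKM of the tested genes in each siMock and siFUBP1 sample, on a log axis, ordered by the siMock mean (x axis). TNFAIP2 is the highest in both groups (111 and 66.5 FPKM), and CXCL8, CXCL3 and CXCL2 lie near the low end in siMock.

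The siFUBP1 samples did not move alike for the rising genes. Replicate 2 was the highest siFUBP1 sample for all 7 genes that rose and for 14 of the 23 tested genes (60.9%), against 33.4% of all tested genes. The siMock samples were uneven too. Replicate 1 was the highest there for 5 of the 7 and for 13 of the 23 genes (56.5%), against 35.1% of all tested genes. Replicate 3 was the highest siMock sample for 2 of the 23 (8.7%), against 36.3%. The share over all genes that rose was not taken, and what sets these libraries apart was not tested. CXCL3 and CXCL8 were tested only through siFUBP1, so nothing is read from their passing the test. Without siFUBP1 replicate 2, all 7 still passed the test, and 4 in place of 5 were called higher. Of all genes, 1280 in place of 1315 were then called higher. The log2 fold changes were then 3.31 for CXCL8, 2.47 for CXCL3, 2.07 for CXCL2, 1.03 for CSF1, 0.93 for IL11, 0.74 for IL6 and 0.41 for NFKB1.

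The wider pathway was followed with 53 further genes, 22 receptors, 18 adaptors and kinases and 13 other inhibitors and targets, of which 46 could be tested. Of these 14 rose, 16 fell and 16 did not pass, or 65.2% against the background of 60.2%, and 3 were called higher and 5 lower, or 17.4% against 17.3%. Among the receptors 6 of 16 tested rose and 4 fell (62.5% passed), and 31.2% were called. CXCR4, the receptor of CXCL12, had 7.11, 5.71 and 5.70 CPM in siMock and 21.8, 25.8 and 28.7 in siFUBP1 (log2 2.04, edgeR adjusted p = 1.39e-12), while its ligand had no reads. IL1RAP, the shared accessory chain of IL-1 family receptors, rose from 8.89, 11.8 and 12.0 CPM to 30.3, 28.8 and 27.4 CPM (log2 1.40, adjusted p = 1.44e-10). IL1RL1, the IL33 receptor, had 3, 6 and 10 reads against 28, 36 and 45 (log2 2.41, adjusted p = 1.62e-05) and was tested only through siFUBP1. The groups were apart for each of the 3, as for 63.9% of all tested genes and 31 of the 46 tested pathway genes. The 3 were named because they were called, so nothing is read from this.

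CSF1R, the receptor of CSF1, moved opposite to its ligand, with 59, 70 and 39 reads in siMock and 7, 2 and 8 in siFUBP1 (log2 -3.35, edgeR adjusted p = 4.30e-08), and was tested only through siMock. IL11RA, the receptor of IL11, fell from 6.99, 8.24 and 5.57 CPM to 2.61, 2.71 and 3.61 CPM (log2 -1.22, adjusted p = 9.74e-06), with some exonic bases shared with GALT and AL162231.3. CXCR1 and CXCR2, the receptors of CXCL8, CXCL2 and CXCL3, had 0 reads in all samples, as had CCR2 and CX3CR1. IL6ST, the gp130 chain, and IL6R did not pass the test, with log2 differences of 0.01 and -0.13.

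Among the adaptors and kinases, 5 of 18 rose and 8 fell, 72.2% against 60.2% of all tested genes, and the 2 called genes (11.1% against 17.3%) were both lower. MYD88, the adaptor of Toll-like and IL-1 receptors, fell from 41.4, 43.0 and 44.1 CPM to 12.1, 10.7 and 13.2 CPM (log2 -1.83, edgeR adjusted p = 5.62e-14). RIPK1, the kinase of the TNF receptor complex, fell from 51.2, 56.3 and 55.7 CPM to 15.7, 13.5 and 16.9 CPM (log2 -1.82, adjusted p = 3.29e-14). Both were tight within groups and far apart between them. The catalytic IkB kinase subunits gave log2 differences of 0.02 for CHUK, which did not pass, and -0.48 for IKBKB.

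Of the other inhibitors and targets, 3 of 12 rose and 4 fell, 58.3% against 60.2% of all tested genes, and 1 was called (8.33% against 17.3%). The IkB genes went different ways: NFKBIE fell from 23.7, 24.4 and 19.9 CPM to 8.59, 13.4 and 10.8 CPM (log2 -1.05, edgeR adjusted p = 3.11e-07), while NFKBIB rose by 0.99 on the log2 scale (adjusted p = 2.56e-07). Without siMock replicate 2 or siFUBP1 replicate 1 NFKBIE was under 2-fold (-0.99 and -0.89). It was under 2-fold too after the correction for GC content and length (-0.905), with no composition scaling and in limma on log2(FPKM + 1). Without siMock replicate 1 or siFUBP1 replicate 3, NFKBIB and the target IER3 passed the 2-fold line and the called higher genes of the pathway list numbered 5 in place of 3. In IER3, 359 exonic bases (26.5%) lie opposite the antisense gene IER3-AS1, so its count is uncertain without strand information.

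**Figure D5:**
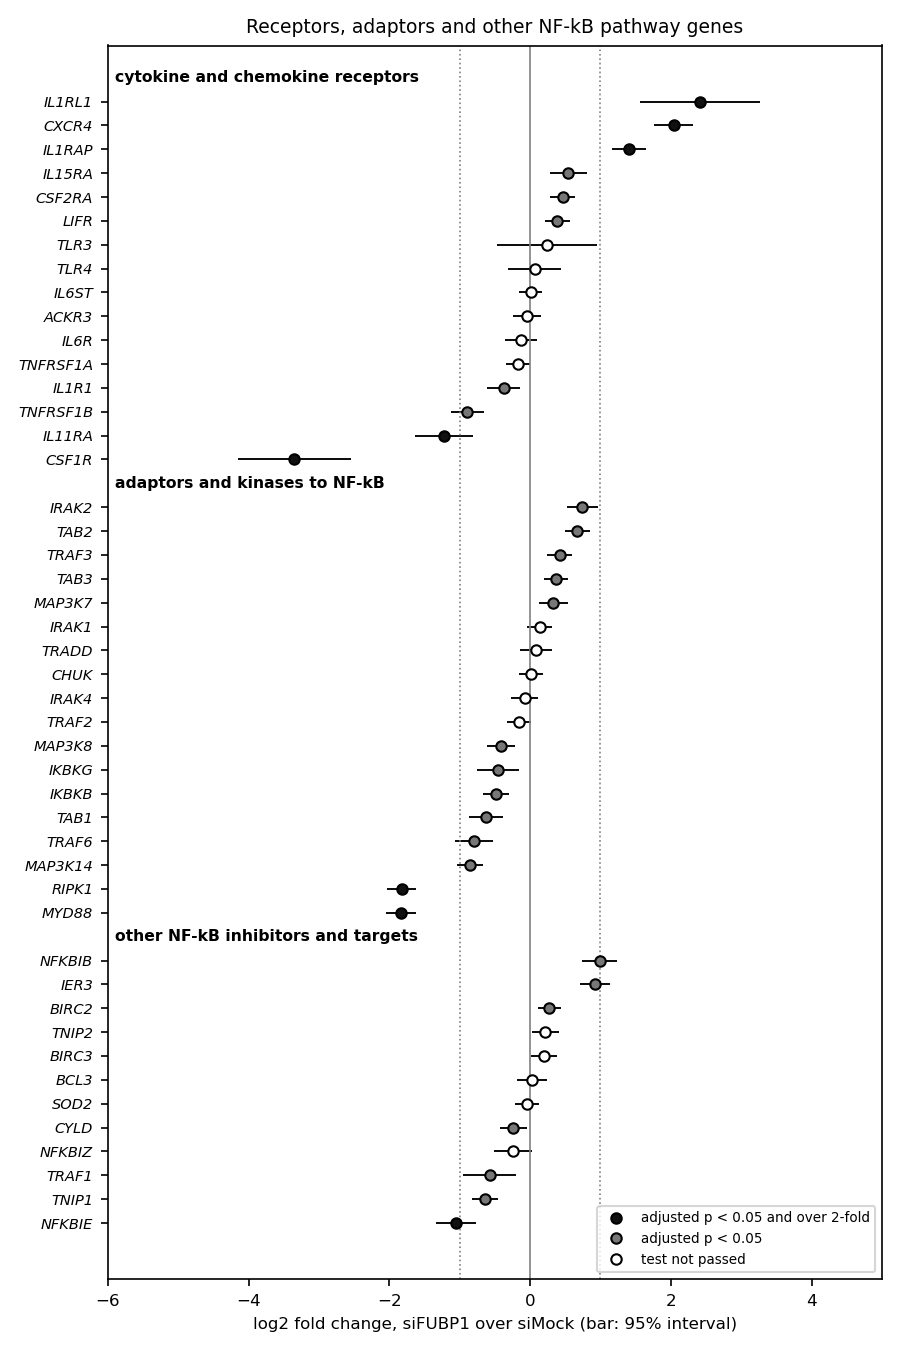
Log2 fold change of siFUBP1 over siMock with 95% confidence intervals for the tested receptors, adaptors and inhibitors outside the list (x axis). IL1RL1, CXCR4 and IL1RAP lie to the right of 1, and CSF1R, MYD88, RIPK1, IL11RA and NFKBIE lie to the left of -1.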

How the data were processed

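Poly(A) mRNA of cells labelled MG63 was sequenced in 3 siMock and 3 siFUBP1 samples. The authors deposited raw read counts per gene, and per the submitters' processing notes HISAT2 2.0.5, StringTie 1.3.3b, featureCounts 1.5.0-p3 and DESeq2 1.16.1 were used, with no roles given. The strand setting of the counting and the genome build are not given in the sources used here, but gene IDs and coordinates in the table match a GENCODE annotation of GRCh38. The FPKM values, also deposited by the authors, are these counts divided by gene length and by a library size that they scaled. The deposited log2 fold changes, p-values and group means (on a scale of normalized signal) hold the authors' own comparison and were not used. The number of per-sample columns left unused was 0.

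Counts were fitted with edgeR 4.0.16 in R 4.3.3 (TMM scaling, filterByExpr by group, robust quasi-likelihood F test, siFUBP1 against siMock), and p-values were adjusted over all 16116 tested genes after Benjamini and Hochberg. A gene passed at an adjusted p below 0.05 and was called where its absolute log2 fold change was also above 1. The SE of a log2 fold change was its size divided by the square root of F. CPM values are on TMM library sizes, and means carry the SD over samples. Totals of 16309900 to 17484313 counts per library set the precision, and limits from a count of 0 (3 counts) cover counting error only. No pair of libraries held identical counts. The FPKM served for levels between genes, and as log2(FPKM + 1) or log2(FPKM + 0.1) in limma 3.58.1 as an alternative, as did DESeq2 1.42.0. On simulated counts with 200 changed genes, edgeR recovered 100% with 1 false call among 16084 genes. The changed genes were drawn only from genes with many reads and were given changes well over 2-fold. Every gene had the same dispersion (0.00684). The simulation therefore does not cover genes with few reads, small changes or a wider spread.

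The genes, the further pathway list and the marker lists were chosen with earlier results of these data known. Sample values are given for each called gene, the 5 genes with the highest siMock FPKM, the NF-kB subunits, NFKBIA and TNFAIP3, and fold changes for genes that passed with a mean of at least 20 counts. From the pathway list, called genes with that mean are named, up to the 6 largest in each direction. LIF, IL15, ICAM1, CCL26, IL1A and the untested genes, and in the pathway IL6ST, IL6R, CHUK, IKBKB, NFKBIB and IER3, were named beyond this rule after their values were seen. Promoters came from RefSeq (GRCh38.p14), and gene overlaps and shared words from GENCODE transcripts. SOD2 had more than 1 row, and the row with more reads was kept.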

Additional observations from a re-analysis of the deposited data

How the results depend on the processing

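The counts of called genes kept to within 1.5 times of their value under most alternatives. The exceptions for all genes and for the inflammatory genes came from limma on log2(FPKM + 1), whose pseudocount shrinks low genes (CXCL8 to 1.69, CXCL3 to 1.03, CCL5 to -0.84), and from dropping the fold threshold, which by construction counts every gene that passed. All genes called numbered 1315 higher and 1472 lower, against 462 and 588 with limma and 4844 and 4851 with no fold threshold. Among the inflammatory genes 5 were called higher and 3 lower, against 3 higher with limma and 10 lower with no fold threshold. In the pathway list 3 were called higher and 5 lower. Limma gave 1 and 2, no fold threshold 14 and 16, and library size only, glmTreat against 1.5-fold, and the correction for GC content and length (chosen after seeing the data) gave 5 higher. Leaving out 1 library at a time gave 3 to 5 pathway genes higher, with 5 without siMock replicate 1 or siFUBP1 replicate 3. LIF turned sign with library size only (0.031) and with the GC and length correction (0.059), and ran from -0.19 to 0.0059 over libraries left out, RELA was 0.020 with that correction, and ICAM1 ran from -0.014 to 0.057 over libraries left out. Over all alternatives, the test of single inflammatory genes held its side in 370 values, was lost in 11, gained in 5 and turned sign in 5. Library size only moved the median of all genes to 0.10, and IL18 was lost there. The replicate block called 5 inflammatory genes higher and 3 lower and 1324 and 1469 of all genes, and RELA passed with it (-0.17, adjusted p = 0.0235). Samples with the same number correlated at 0.03, 0.06 and 0.26 in their deviations. These were the best matches for siMock 2 and siMock 3, while siMock 1 correlated best with siFUBP1 2 (0.15). The values do not settle whether the numbers pair samples. The labels name no pairing, and the main test used none. Depth limits the 18 inflammatory genes left untested. The fold changes of genes with few reads in a group (CXCL8, CXCL3, CCL5, IL1RL1, CSF1R and the marker RUNX2) rest on those few reads.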
